A study of Mus musculus with 2 samples.

Results

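The genes described are the ephrins and their Eph receptors, the semaphorins, and the plexins and neuropilins that receive semaphorins. They were taken from the deposited table by gene symbol alone, as every row named *Efna* or *Efnb*, *Epha* or *Ephb*, *Sema*, *Plxn*, *Nrp1* or *Nrp2*, which gave 52 of 22156 genes. These were 8 ephrins, 14 Eph receptors, 19 semaphorins, 9 plexins and 2 neuropilins. RNA of primary chondrocytes was sequenced in 1 library for the controls and 1 for the knockout (*Myl3*-KO), to ask which pathways *Myl3* acts on in these cells. The cells came from rib cartilage according to the labels. The study's methods describe primary chondrocytes of both rib and articular cartilage from newborn mice, kept as a monolayer. The knockout mice are *Col2a1-Cre; Myl3* flox/flox, so that a Cre recombinase under the *Col2a1* promoter, active in cartilage cells, deletes the floxed *Myl3* gene, whereas the controls carry the floxed gene without Cre and are given as WT in the labels. Both genotypes were on the C57BL/6J background. The number of mice behind a library is not given in the sources used here.

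Ephrins and semaphorins are cues that tell a cell where to move, adhere or retract. Ephrins sit on the surface of one cell and bind Eph receptor tyrosine kinases on its neighbour, and both partners can signal. Semaphorins are secreted (class 3) or held at the membrane (most other classes), and bind plexins either directly or, for most of class 3, together with a neuropilin. Both are best known from growing axons, and several of them also act between bone-forming and bone-resorbing cells.

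Of the 52 guidance genes, 41 reached 10 counts summed over the libraries and were tested, and 19 of these differed by more than counting error. In the knockout library 18 rose (43.9%) and 1, *Sema3c*, fell (2.44%). Of all 12431 genes tested, 18.6% rose and 16.8% fell. The plexins held the most of these genes. Of the 9 plexin genes 7 rose, among them *Plxna2*, which went from 893 to 1311 counts in the smaller library. The median log2 ratio of knockout over control was 0.29 for the 41 guidance genes and 0.02 for all genes tested. Relative to genes of like transcript length and base composition the median of the guidance genes was 0.16.

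The test was a two-sided exact binomial test of the rounded counts against the share set by the library totals, with Benjamini-Hochberg adjustment over all genes tested. Its subject is the reads of these 2 libraries and not the genotypes, and there is no replicate check of any difference. Ratios are of CPM, counts scaled to a common library total, and their 95% Clopper-Pearson intervals cover counting error only. When a variation of 10% between cultures was assumed (a coefficient of variation of 0.1 set by hand in the exact test of edgeR), *Plxna2* alone of the 41 passed (adjusted p = 0.00634), and with 0.2 or 0.4 the number was 0. At that first setting 0.33% of all genes rose and 0.161% fell.

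The library totals were 17612435 expected counts for control and 13477977 for knockout cells. *Myl3* had 0 counts in both libraries, so that its own level gave no check of the labels. Of 10 chondrocyte markers, *Acan*, *Matn1*, *Matn3* and *Hapln1* had 0 counts in both libraries, and *Col9a1* and *Comp* had at most 2. Of the 4 tested, *Sox9* fell from 866 to 480 counts (25%, against 16.8% of all genes tested) and 0 rose. *Col2a1* had 30 and 27 counts in control and knockout cells, *Col11a1* 121 and 99, and *Prg4* 7 and 7. Their log2 ratios were 0.23, 0.1 and 0.39, with intervals that held 0. The 10 chondrocyte markers summed to 58.2 CPM in control and 45.7 CPM in knockout cells. The 8 fibroblast markers summed to 17700 CPM in control and 20100 CPM in knockout cells. Of the 7 tested 5 rose (71.4%, against 18.6% of all genes tested), namely *Col1a1*, *Col1a2*, *Pdgfra*, *Prrx1* and *S100a4*. *Dcn* fell from 631 to 155 counts (14.3% of those tested, against 16.8%), and *Thy1* was at 0. The tested genes of this list had a median of 46900 counts summed over the libraries, against 1050 for all genes tested, so that smaller ratios passed the test. The median log2 ratio of the list was 0.15, and 0.01 relative to genes of like transcript length and base composition. Endothelial, neuronal and Schwann cells are known to use many guidance genes, and defining markers of each were at 0. The endothelial list summed to 29 and 41 counts with *Cdh5*, *Tie1*, *Emcn* and *Erg* at 0 in both libraries, and of the Schwann list *Sox10*, *Ngfr* and *Foxd3* were at 0. Of the neuron list *Rbfox3*, *Snap25*, *Stmn2* and *Elavl4* were at 0, and *Map2* gave 728 of 927 counts in control and 522 of 675 in knockout cells. Muscle markers summed to 6 and 4 counts and immune markers to 89.04 and 63. What part other cell types have in the ratios was not tested. In bulk RNA, fewer cells of a type and less RNA per cell cannot be told apart.

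The promoters of 3 plexins that rose, *Plxna2*, *Plxna3* and *Plxnd1*, and of *Sema3c*, the gene that fell, are shown so that the start regions of genes that moved apart can be compared. Each is the 250 bases before a RefSeq start site on GRCm38.p6, read 5′ to 3′ on the strand of the gene. Capitals mark the GC box GGGCGG on either strand, a common element of promoters without a TATA box. The windows are *Plxna2* at chr1:194619579-194619828 (plus strand), *Plxna3* at chrX:74328816-74329065 (plus), *Plxnd1* at chr6:115995006-115995255 (minus) and *Sema3c* at chr5:17574566-17574815 (plus). The *Plxna2* and *Sema3c* windows lie inside the longer gene spans that GENCODE M21 gives.
Plxna2: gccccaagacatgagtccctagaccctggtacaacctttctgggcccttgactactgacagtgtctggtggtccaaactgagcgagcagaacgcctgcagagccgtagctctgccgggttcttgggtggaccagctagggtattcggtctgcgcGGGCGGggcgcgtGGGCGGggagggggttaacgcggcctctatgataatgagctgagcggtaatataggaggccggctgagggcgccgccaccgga
Plxna3: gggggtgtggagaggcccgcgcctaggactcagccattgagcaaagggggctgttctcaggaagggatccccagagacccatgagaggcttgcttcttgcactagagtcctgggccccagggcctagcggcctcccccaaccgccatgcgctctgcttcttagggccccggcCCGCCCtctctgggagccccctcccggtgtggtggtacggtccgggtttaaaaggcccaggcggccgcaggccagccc
Plxnd1: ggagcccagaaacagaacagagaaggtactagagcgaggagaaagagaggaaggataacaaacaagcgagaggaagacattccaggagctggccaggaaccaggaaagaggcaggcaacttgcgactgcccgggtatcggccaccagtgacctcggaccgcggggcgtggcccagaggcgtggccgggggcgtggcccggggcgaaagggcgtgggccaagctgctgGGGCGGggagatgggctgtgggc
Sema3c: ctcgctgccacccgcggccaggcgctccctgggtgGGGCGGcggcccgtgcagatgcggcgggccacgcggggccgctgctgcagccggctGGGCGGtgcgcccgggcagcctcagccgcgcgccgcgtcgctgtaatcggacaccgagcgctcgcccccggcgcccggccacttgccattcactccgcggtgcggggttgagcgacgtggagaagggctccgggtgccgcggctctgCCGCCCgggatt

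All 4 windows were rich in G and C, from 62.8% in *Plxna2* to 78.4% in *Sema3c*. The GC box occurred 2 times in *Plxna2*, 1 time each in *Plxna3* and *Plxnd1*, and 3 times in *Sema3c*. These 4 windows cannot show whether the box goes with a direction, since most windows of guidance genes hold it. Windows were found for 47 of the 52 guidance genes, 61 windows in all, and 46 of these (75.4%) held a GC box against 32.7% of 32851 windows of all genes. Their median GC content was 64.4%, against 52.4% for all windows. The core letters TGGGAA of the Notch factor RBPJ occurred on either strand in 11 of the 61 windows (18%) and in 21.6% of all windows. The N-box CACNAG, bound by Hes repressors, occurred in 31 (50.8%) and in 36.7% of all windows. None of the 61 windows held matches to different motifs that overlapped each other (0 windows). A match is a description of letters and not of a bound site.

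The level of each guidance gene was compared by its deposited FPKM, which scales reads by gene length and library. Plexins held the highest levels on this per-length scale. *Plxnb2* stood at 43.08 FPKM in control and 55.14 in knockout cells, 51.2% and 47.8% of the FPKM summed over plexins. Among the Eph receptors *Ephb4* led with 36.78 and 39.77 FPKM, 59.4% and 55.3% of its family. *Efna1* led the ephrins with 25.83 and 26.17, *Nrp2* the neuropilins with 15.62 and 19.57, and *Sema4c* the semaphorins with 11.13 and 13.69 FPKM. The leader of each family was thus the same gene in both libraries.

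**Figure D1:**
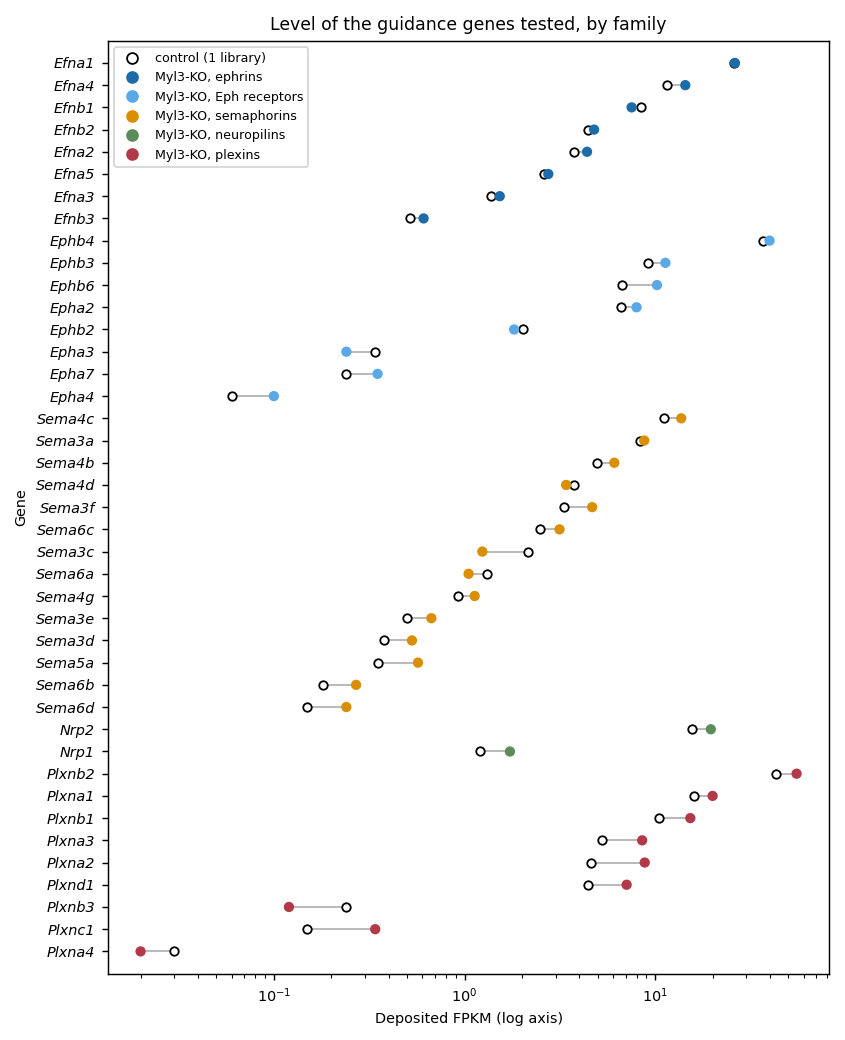
FPKM as deposited, on a log axis, for the 41 guidance genes tested; open circles are the control library and filled circles the knockout library. *Plxnb2* and *Ephb4* are highest, and the filled circles of 7 of the 9 plexins lie to the right of the open ones.

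Ephrin-A ligands, which are tied to the membrane by a lipid anchor, were measured for all 5 genes. *Efna1* had 673 counts in control and 522 in knockout cells, a log2 ratio of 0.02 (with a 95% interval from -0.15 to 0.19, adjusted p = 0.905, exact binomial test). *Efna4* had 326 and 310 counts and rose, with a log2 ratio of 0.31 (interval from 0.08 to 0.54). It was the single ephrin past the test (1 of 8). *Efna2* had 141 and 126 counts, *Efna5* 149 and 138, and *Efna3* 54 and 38. Their intervals all held 0.

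Ephrin-B ligands cross the membrane and signal back into the cell that carries them. *Efnb1*, the gene mutated in craniofrontonasal syndrome, had 485 counts in control and 330 in knockout cells, a log2 ratio of -0.17 (with a 95% interval from -0.38 to 0.04, adjusted p = 0.208, exact binomial test). *Efnb2*, a ligand of EphB4, had 375 and 309 counts (log2 ratio 0.11, interval from -0.12 to 0.33). *Efnb3* had 29 and 26 counts. The ephrin-B genes therefore gave 0 calls in either direction by the exact binomial test, also 0 at an unadjusted p under 0.05, and their log2 ratios ran from -0.17 to 0.23. Relative to genes of like length and GC the log2 ratio of *Efnb1* was -0.33, and with that offset in the test *Efnb1* fell.

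EphA receptors were sparse. Of their 9 genes *Epha5*, *Epha6* and *Epha8* had 0 counts in both libraries, which allows up to 0.170 CPM in control and 0.223 CPM in knockout cells at the limit of 3 counts, and *Epha1* and *Epha10* had at most 2 counts. *Epha2*, a receptor of ephrin-A1, carried most of the family with 456 counts in control and 421 in knockout cells. It rose by a log2 ratio of 0.27 (with a 95% interval from 0.08 to 0.47, adjusted p = 0.0198, exact binomial test). Relative to genes of like length and GC its log2 ratio was 0.09 and the call was lost. *Epha3* had 34 and 18 counts, *Epha7* 28 and 25, and *Epha4* 7 and 6. These 3 had intervals that held 0, and that of *Epha4*, from -1.69 to 1.96, leaves its direction undetermined at this depth.

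EphB receptors were more abundant, and 3 of the 4 tested rose. *Ephb4*, known for its part in vessels and in osteoblasts, had 2720 counts in control and 2247 in knockout cells, and its log2 ratio of 0.11 (95% interval from 0.03 to 0.19, adjusted p = 0.0243, exact binomial test) was small. Its call was lost with TMM or DESeq2 scaling, and its log2 ratio was -0.07 once that of genes of like length and GC was subtracted. *Ephb6*, whose kinase domain is inactive, had 442 and 518 counts, more in the smaller library. Its log2 ratio of 0.61 (interval from 0.43 to 0.80) lay above those of *Ephb3* (677 and 638 counts, 0.30, interval from 0.14 to 0.46) and *Ephb2* (185 and 130 counts, -0.12, interval from -0.46 to 0.21). The call of *Ephb3* was lost relative to genes of like length and GC (log2 ratio 0.12). *Ephb1* had 0 and 1 counts. The intervals of *Ephb6* and *Ephb4* did not meet.

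Class 3 semaphorins are the secreted ones, and moved in both directions. *Sema3a*, which acts on bone as well as on axons, had 646 counts in control and 585 in knockout cells and rose by a log2 ratio of 0.24 (with a 95% interval from 0.08 to 0.41, adjusted p = 0.0125, exact binomial test). *Sema3c* (chromosome 5 from 17574281 to 17730268), a ligand needed for the outflow tract of the heart, had 209 and 92 counts and fell. Its log2 ratio was -0.80 (interval from -1.17 to -0.44, adjusted p = 5.11e-05, exact binomial test), which is 1.74-fold lower, and it stayed at -0.76 relative to genes of like length and GC. *Sema3d* had 42 and 45 counts, *Sema3e* 60 and 62, and *Sema3f* 153 and 130, with intervals that held 0. *Sema3g* had 1 and 3 counts and was not tested. The other 4 class 3 genes tested had log2 ratios above 0.

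Class 4 semaphorins are membrane-bound ligands of plexins of the B type in particular. *Sema4c*, a ligand of plexin-B2, had 690 counts in control and 689 in knockout cells, a log2 ratio of 0.38 (with a 95% interval from 0.23 to 0.54, adjusted p = 7.84e-06, exact binomial test). *Sema4b* also rose (330 and 309 counts, log2 ratio 0.29), a call that was lost with TMM scaling (adjusted p = 0.0518, exact binomial test) and relative to genes of like length and GC (log2 ratio 0.11). *Sema4d*, a ligand of plexin-B1 that restrains osteoblasts, had 297 and 206 counts with a log2 ratio of -0.14 (interval from -0.41 to 0.12). *Sema4g* had 71 and 69 counts, while *Sema4a* and *Sema4f* had at most 1 count in a library.

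The semaphorins of class 5 to 7 were low, at most 3.15 FPKM. *Sema6c* had 137 counts in control and 146 in knockout cells, a log2 ratio of 0.48 (with a 95% interval from 0.13 to 0.82, adjusted p = 0.0197, exact binomial test). The call of *Sema6c* was lost relative to genes of like length and GC (log2 ratio 0.30). *Sema5a*, which carries thrombospondin repeats, had 66 and 83 counts and the higher log2 ratio of 0.72 (interval from 0.23 to 1.21, adjusted p = 0.0108, exact binomial test). *Sema6a* had 113 and 81 counts, *Sema6d* 17 and 20, and *Sema6b* 12 and 14. These were within counting error, and *Sema5b* and *Sema7a* had at most 3 counts in a library.

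Neuropilins are the co-receptors of class 3 semaphorins and of vascular endothelial growth factor. *Nrp2* had 1790 counts in control and 1718 in knockout cells, a log2 ratio of 0.33 (with a 95% interval from 0.23 to 0.42, adjusted p = 4.24e-10, exact binomial test). *Nrp1* had 76 and 84 counts, a log2 ratio of 0.53 (interval from 0.07 to 1.0), and missed the adjusted threshold (exact binomial test, p = 0.0207, adjusted p = 0.057). *Nrp2* held 92.9% of the neuropilin FPKM in control and 91.9% in knockout cells.

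Plexins are the receptors of semaphorins and act on small GTPases through a domain inside the cell. Their summed FPKM was 84.17 in control and 115.32 in knockout cells, and their summed counts were 11028 and 11745 although the knockout library was the smaller one. Of the 9 genes 7 rose, and the other two, *Plxnb3* and *Plxna4*, were among the 3 weakly counted plexins. The median log2 ratio of the family was 0.59, ahead of the ephrin-A (0.22), ephrin-B (0.11), EphA (0.19) and EphB genes (0.21), the neuropilins (0.43) and the class 3 (0.24) and class 4 (0.32) semaphorins. Only the 5 tested semaphorins of class 5 to 7 had as high a median (0.61), on far fewer counts. Relative to genes of like length and GC the plexins (0.31) lay close to the neuropilins (0.33) and the class 3 semaphorins (0.28) and below the semaphorins of class 5 to 7 (0.43).

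The A-type plexins, partners of neuropilins and of class 6 semaphorins, differed among themselves. *Plxna2* (chromosome 1 from 194618218 to 194816869) had 893 counts in control and 1311 in knockout cells, or 4.59 and 8.81 FPKM. This is a 1.92-fold rise, a log2 ratio of 0.94 (with a 95% interval from 0.82 to 1.06, adjusted p = 1.03e-49, exact binomial test). *Plxna3* on chromosome X had 645 and 799 counts, a log2 ratio of 0.69 (interval from 0.54 to 0.85, adjusted p = 3.08e-18, exact binomial test). *Plxna1*, with 2535 and 2434 counts the most abundant of the A type, rose less (log2 ratio 0.33, interval from 0.25 to 0.41). *Plxna4* had 7 and 4 counts. The intervals of *Plxna2*, *Plxna3* and *Plxna1* overlapped only between the first pair.

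Among the B-type plexins, as among the A type, the most abundant gene had the smallest rise of those that rose. *Plxnb2* had 4839 counts in control and 4739 in knockout cells, a log2 ratio of 0.36 (with a 95% interval from 0.30 to 0.41, adjusted p = 1.97e-31, exact binomial test). *Plxnb1*, the receptor of SEMA4D, had 1526 and 1756 counts and a log2 ratio of 0.59 (interval from 0.49 to 0.69), above that of *Plxnb2* with no overlap. *Plxnb3* had 26 and 10 counts, and its log2 ratio of -0.99 (interval from -2.21 to 0.11) did not pass (exact binomial test, adjusted p = 0.143).

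*Plxnd1*, a direct receptor of SEMA3E with a known part in vessels, had 538 counts in control and 659 in knockout cells. It rose by a log2 ratio of 0.68 (with a 95% interval from 0.51 to 0.85, adjusted p = 1.52e-14, exact binomial test). *Plxnc1*, the receptor of SEMA7A, had 19 and 33 counts and the largest log2 ratio of all the guidance genes, 1.18 (interval from 0.33 to 2.08, adjusted p = 0.0166, exact binomial test). Its ligand gene *Sema7a* had 3 and 2 counts. *Plxnc1* was the 1 guidance gene called with a log2 ratio of at least 1 in size, which 1.15% of all genes tested reached upward and 0.394% downward. No guidance gene (0 of 41) reached 2 in size, against 0.249% of genes upward and 0.0402% downward.

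**Figure D2:**
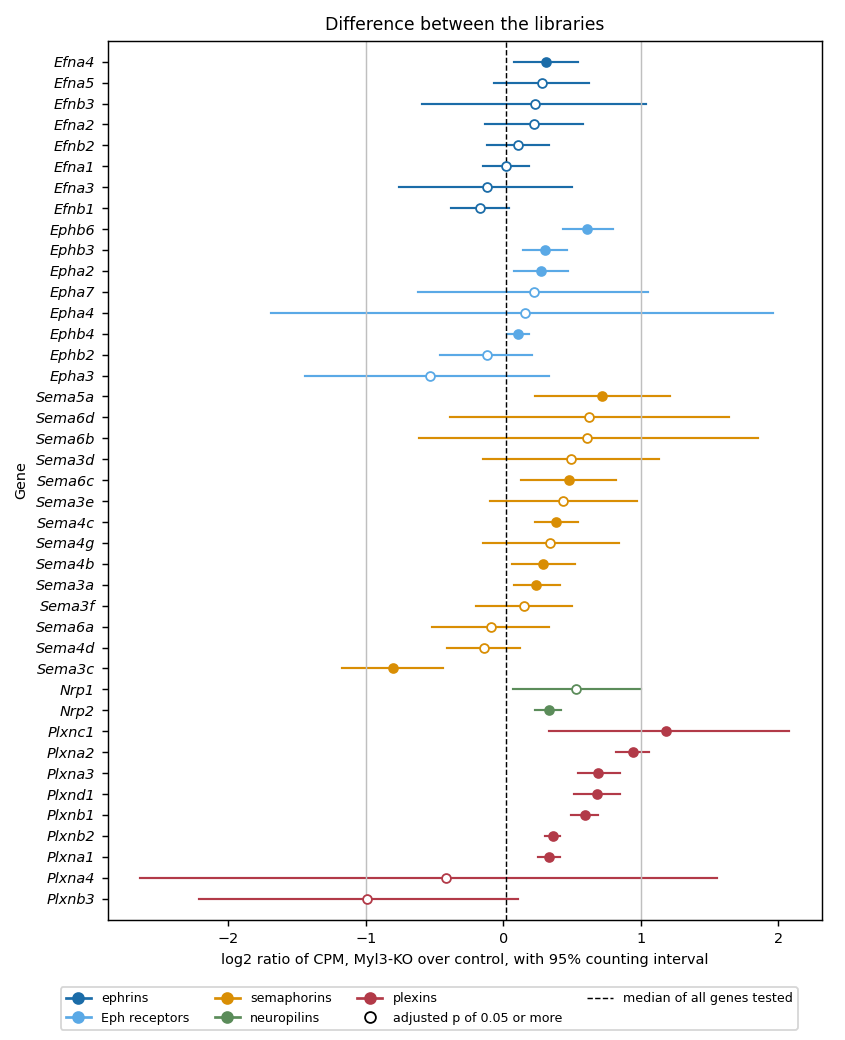
Log2 ratio of CPM, knockout over control, for the 41 guidance genes tested, with 95% counting intervals; filled circles have an adjusted p under 0.05, the dashed line is the median of all genes tested (0.02) and the grey lines stand at -1 and 1. Filled circles lie to the right of the dashed line for 18 genes and to the left for *Sema3c* alone.

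Set among all genes by abundance, the guidance genes tested were less deeply counted than most. Their median was 301 counts in the libraries together, and that of all genes tested 1050, so that a difference of a given size was harder to detect in them. For plexins the median was 1444 counts. Of the 41 tested, 32 had a log2 ratio above 0 and 9 below, and of all genes tested 6553 were above and 5878 below.

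**Figure D3:**
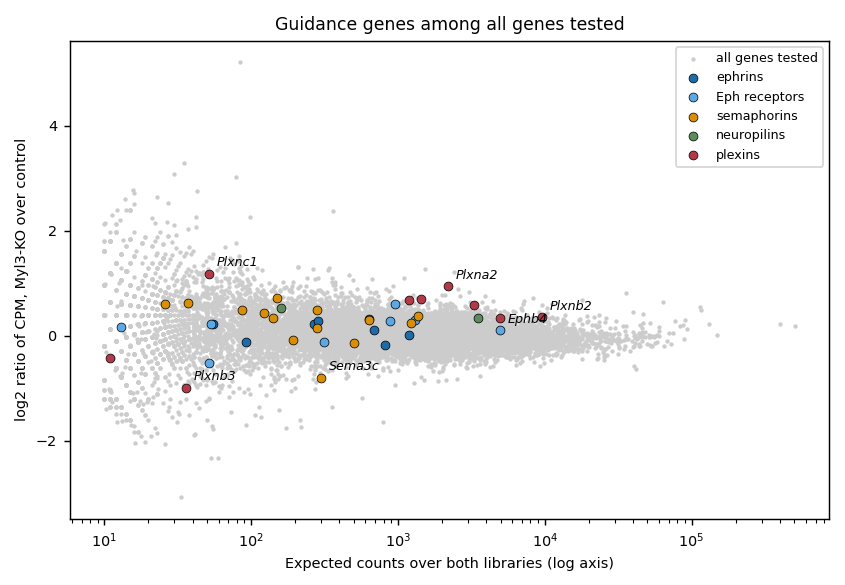
Log2 ratio of CPM, knockout over control, against the expected counts of both libraries summed (log axis) for all 12431 genes tested (grey) and the 41 guidance genes (coloured by family). *Plxna2*, at 2204 counts, lies near the upper edge of the grey cloud, while *Ephb4* and *Plxnb2* lie within it.

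Transcript length and base composition moved with the ratios of all genes. Genes were put into 5 equal bins by the length of their longest transcript in GENCODE M21 and into 5 by its GC content. The bin of the longest genes had a median log2 ratio of 0.08 and that of the shortest one of -0.08, and the bins with the most and the least GC had 0.10 and -0.07. Genes in the top bin of both had a median of 0.28. *Plxna1*, *Plxnb1*, *Plxnb2* and *Plxnd1* belong to that set. Relative to genes of like length and GC the log2 ratio of *Plxna1* was 0.05 and that of *Plxnb2* 0.08, whereas *Plxna2* kept 0.80, *Plxna3* 0.48, *Plxnd1* 0.40 and *Plxnb1* 0.31. The median of the plexins was then 0.31 and that of all guidance genes 0.16. With this offset put into the exact binomial test, an alternative chosen after seeing the data, 12 guidance genes rose and 2 fell, *Sema3c* and *Efnb1*, against 13.7% and 15.2% of the genes with a value. Of these 14 genes 13 had passed without the offset, and *Epha2*, *Ephb3*, *Ephb4*, *Plxna1*, *Sema4b* and *Sema6c* no longer passed. What part length and base composition play in the ratios of the plexins was not tested beyond these values.

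**Figure D4:**
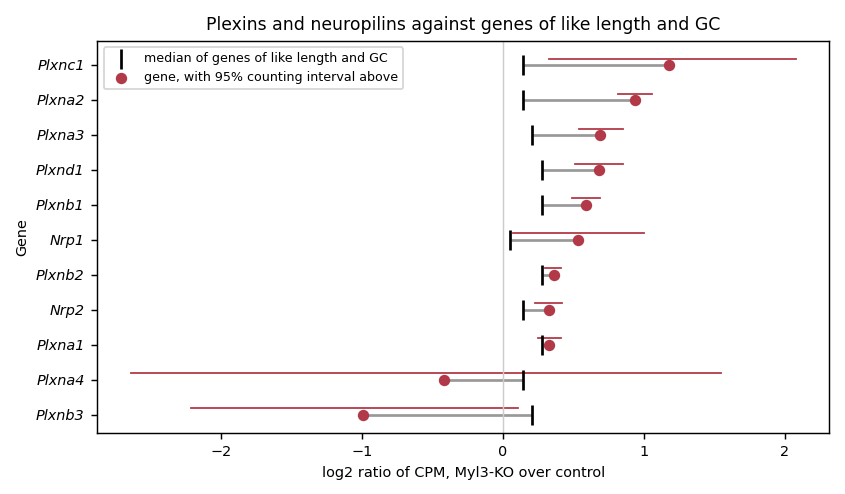
Log2 ratio of CPM, knockout over control, of the 9 plexins and 2 neuropilins (circles, with 95% counting intervals drawn above them) and the median log2 ratio of all tested genes in the same bin of transcript length and of GC (black bars). *Plxna1* and *Plxnb2* lie close to their bars (0.28 for both), and *Plxna2* lies 0.80 to the right of its bar.

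For a few guidance genes the FPKM and count ratios differed, since the length implied by a count and its FPKM was not the same in both libraries. A length per gene was computed as the count over FPKM and library total, for genes with at least 50 counts and 1 FPKM in each library. It moved by more than 10% for 4 of 27 guidance genes and for 5.82% of 10190 genes. *Sema3f* went from 2601 bases in control to 2065 in knockout cells, so that its FPKM gave a log2 ratio of 0.48 and its counts 0.15. *Efna5* went from 3241 to 3723 bases, *Sema3a* from 4408 to 4955 and *Sema6a* from 4898 to 5724. The rise of *Sema3a* was 0.07 on the log2 FPKM scale, below its counting interval. The deposited table holds no levels of single transcripts, and a shift between isoforms was not tested.

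Downstream of these receptors, a list of 59 effector genes held 56 that were tested. Of these 20 rose (35.7%) and 5 fell (8.93%), against 18.6% and 16.8% of all genes tested, with a median log2 ratio of 0.12, and of 0.00 relative to genes of like length and GC. The 3 effectors with the highest FPKM fell. *Cfl1*, which encodes the actin-severing cofilin, had 20015 counts in control and 14435 in knockout cells (log2 ratio -0.09), *Rac1* had 8562.19 and 6174.21 (-0.09) and *Rhoa* 5940 and 4289 (-0.08). Others with a part in GTPase and actin control rose, among them *Mical2* (0.37), *Farp1* (0.34) and *Limk2* (0.29). L1CAM, an adhesion molecule in semaphorin receptor complexes, was the 1 effector past a log2 ratio of 1. *L1cam* went from 2 to 9 counts, a log2 ratio of 1.97 with the control raised to the floor of 3 counts (the interval from the counts themselves ran from 0.28 to 5.81, adjusted p = 0.0387, exact binomial test).

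Other guidance cues and receptors (32 listed, 31 in the table and 19 tested) gave 4 that rose (21.1%, against 18.6% of all genes tested) and 1 that fell (5.26%, against 16.8%). Their median log2 ratio was 0.20, and 0.00 relative to genes of like length and GC. *Ntn4*, which encodes a basement membrane netrin, went from 26 counts in control to 57 in knockout cells (log2 ratio 1.52, 95% interval from 0.83 to 2.25, adjusted p = 3.04e-05, exact binomial test). *Cxcr4*, the receptor of CXCL12, fell from 23 to 6 counts (log2 ratio -1.55, interval from -3.14 to -0.22, adjusted p = 0.0417, exact binomial test). The most abundant were *Cxcl12* with 7184 and 5376 counts, which did not pass, *Neo1* with 2673 and 2446, which rose by 0.26, and *Vldlr* with 1210 and 890. Among 12 partners of semaphorin receptors 6 were tested. Of these 1 rose (16.7%, against 18.6% of all genes tested) and 2 fell (33.3%, against 16.8%). Their median log2 ratio was 0.07, and 0.03 relative to genes of like length and GC. *Itgb1*, the integrin subunit that binds SEMA7A, fell by 0.10 on the log2 scale (19152 to 13685 counts), and *Vegfa*, a neuropilin ligand, by 0.30 (978 to 607 counts). The semaphorin receptor gene *Cd72* went from 0 to 12.12 counts, a log2 ratio of 2.4 with the control raised to the floor of 3 counts. Its interval from the counts themselves began at 1.86 and had no upper end (adjusted p = 2.85e-04, exact binomial test). With at least 10 counts required in each library, *Cd72* was no longer tested.

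In the deposited pathway annotation, 49 of the 52 guidance genes carried the KEGG axon guidance pathway. Its other 103 genes tested had a median log2 ratio of 0.09, and of 0.0 relative to genes of like length and GC. Of the 103, 32 rose (31.1%) and 15 fell (14.6%), against 18.6% and 16.8% of all genes tested. Of the 41 guidance genes 43.9% rose and 2.44% fell. These shares describe the 2 libraries and were not tested against each other.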

How the data were processed

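RNA sequencing of primary chondrocytes was analysed, in 1 control library and 1 knockout library. Deposited by the authors were expected counts, estimated reads per gene without normalization, and FPKM values, scaled by the authors for gene length and library and rounded to 2 decimals. The submitters' processing notes name GRCm38 (mm10); aligner, counting tool and strand setting are not given in the sources used here. The column headed NC was read as control because the other is headed KO.

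Counts were rounded for the exact binomial test, which was fitted over the 12431 genes that reached 10 counts summed over the libraries, with Benjamini-Hochberg adjustment. With 1 library per genotype, quasi-likelihood tests have no residual degrees of freedom. Log2 ratios used counts over library totals with counts under 3 raised to 3. Genes rose or fell where the adjusted p was under 0.05, and were called at a log2 ratio of at least 1 or 2 in size. The test was tried first on simulated counts with counting noise alone, a trial that does not cover variation between cultures. Full statistics are given for called genes, the gene with the highest FPKM in each subfamily and the 5 largest ratios past the test in each direction. The members and lists were chosen with earlier results of these data known. None of the 52 genes had a count that was not whole (0), and 3 overlap another counted gene, *Ephb4* among them.

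Coordinates and transcripts are of GENCODE M21, and promoter windows of RefSeq. Lists of chondrocyte, fibroblast, endothelial, neuron, Schwann, muscle and immune markers, effectors, other cues and receptor partners were used. The summed level of the Schwann list is not reported here. Alternatives were TMM and DESeq2 scaling, other filters, a preset coefficient of variation, an added count, the FPKM ratio, unadjusted p and an offset for length and GC. Python 3.11.15, scipy 1.17.1, R 4.3.3, edgeR 4.0.16 and DESeq2 1.42.0 were used.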

Additional observations from a re-analysis of the deposited data

How the results depend on the processing

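The spread assumed between cultures decided the calls. With edgeR's exact test at a coefficient of variation of 0.1, 1 guidance gene rose (*Plxna2*) and 0 fell, against 18 and 1 with counting error alone, and with 0.2 or 0.4 the numbers were 0 and 0. Genes called with a log2 ratio of at least 1 were then 0 at each of these spreads, against 1 (*Plxnc1*), and effectors called higher were 0 against 1 (*L1cam*). Of the other cues, those called higher were 0 at 0.2 and 0.4 and those called lower 0 at all 3 spreads, against 1 each (*Ntn4* and *Cxcr4*). With at least 10 counts in each library, effectors called higher and other cues called lower were 0 each, since *L1cam* and *Cxcr4* were no longer tested. Relative to genes of like length and GC, chosen after seeing the data, these were 0 and 0 too, 2 guidance genes fell in place of 1, and *Ephb4* turned to a log2 ratio of -0.07.

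Family medians moved with that offset to 0.31 for plexins, 0.14 for class 4 semaphorins and 0.03 for EphB receptors. The FPKM ratio gave 0.55 for plexins, 0.42 for class 3 semaphorins and 0.41 for EphA receptors. With at least 10 counts in each library the median was 0.63 for plexins, and with no filter 0.30 for EphB receptors. TMM scaling left 16 guidance genes higher and DESeq2 scaling 17, with 1 lower in each. No paired analysis was possible because each genotype has 1 library, and for the same reason no library could be left out.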
